A study of Mus musculus with 7 samples.

Results

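Of the 18193 genes that could be followed on these arrays, 10 are described here, all encoding transcription factors that direct the making of fat cells. They are the nuclear receptors Pparg, Ppara, Ppard and Rxra, the CCAAT/enhancer binding proteins Cebpa, Cebpb and Cebpd, and the factors Klf15, Ebf1 and Zfp423. They were chosen as known adipogenic regulators, including the PPAR receptors that conjugated linoleic acid (CLA) can bind. Earlier results of these data were known when they were chosen. Each was read from the probe sets annotated to its symbol alone, 21 in all. A gene with several probe sets is given by the one with the highest mean log2 signal, and the others stand beside it.

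The glands came from nulliparous FVB/PyV-Mt females, 8 weeks old, and carried the polyoma middle T transgene in every group. The diets were 1% CLA chow (4 arrays, 6 mice placed on it) and AIN93G control chow (3 arrays, 5 mice placed on it), each eaten for 4 weeks from 4 weeks of age. The sources used here do not name the promoter that drives the transgene. Each sample is labelled as a mouse, and the p-values measure the spread between these 7 arrays.

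PPARs are receptors for fatty acids and their derivatives that bind DNA together with an RXR partner. Pparg is the master regulator of fat cell formation, and it and Cebpa switch on each other and most of the genes that store fat. Cebpb and Cebpd act earlier in that cascade, while Ppara and Ppard control genes of fat burning. The mammary gland of a young virgin mouse is a tree of epithelium set in a pad of fat, so fat cell transcripts are a large part of what whole gland RNA holds.

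Promoter sequences in RefSeq (GRCm38.p6) matched 9 of the 10 genes, with 14 starts in all. Each runs from 250 bases before the start to 50 after it. Of these, 3 are shown. The Pparg promoter is where the loop between the C/EBPs and Pparg would be read, Cebpb stands for the early C/EBPs, and Klf15 is shown for its repeated E-boxes. The Pparg sequence is the most downstream of 3 starts, chr6:115421816-115422115 on the plus strand, known in mouse as that of the fat cell form. Capitals mark matches to the C/EBP motif TTGCNNAA on either strand.
Pparg: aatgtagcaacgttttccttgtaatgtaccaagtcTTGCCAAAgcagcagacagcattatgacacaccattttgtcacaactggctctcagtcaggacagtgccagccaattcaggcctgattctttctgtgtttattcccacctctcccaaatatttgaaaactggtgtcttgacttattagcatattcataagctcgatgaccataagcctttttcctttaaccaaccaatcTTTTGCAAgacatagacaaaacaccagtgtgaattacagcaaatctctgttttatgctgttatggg
For Cebpb, chr2:167688665-167688964 on the plus strand, capitals mark TGACG, the core of the cyclic AMP response element, on either strand.
Cebpb: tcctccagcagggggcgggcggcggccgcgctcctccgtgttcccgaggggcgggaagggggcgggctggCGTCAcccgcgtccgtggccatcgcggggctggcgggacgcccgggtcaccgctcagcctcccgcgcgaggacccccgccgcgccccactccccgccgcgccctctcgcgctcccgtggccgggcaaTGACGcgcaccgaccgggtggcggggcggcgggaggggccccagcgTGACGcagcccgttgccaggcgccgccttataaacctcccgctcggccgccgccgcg
For Klf15, chr6:90462326-90462625 on the plus strand, capitals mark the E-box CACGTG, which reads the same on both strands.
Klf15: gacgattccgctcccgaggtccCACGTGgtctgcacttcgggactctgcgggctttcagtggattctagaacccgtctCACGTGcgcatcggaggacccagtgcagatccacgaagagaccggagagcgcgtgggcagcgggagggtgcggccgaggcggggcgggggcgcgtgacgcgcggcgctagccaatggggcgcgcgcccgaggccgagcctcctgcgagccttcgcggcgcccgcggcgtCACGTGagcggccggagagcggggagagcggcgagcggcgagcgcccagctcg
The Pparg window held 2 C/EBP motifs, at positions -215 and -16 from the start. Of 32851 promoters of the same length, 10.8% held at least 1 such motif and 0.773% at least 2. A window of Zfp423, at the second of its starts, also held 2, at -131 and 23, and the other Pparg starts held none. The Cebpb window held 3 matches to TGACG, at -180, -53 and -7, a number reached in 1.03% of promoters. The Klf15 window held 3 E-boxes, at -228, -172 and -3, a number reached in 0.0883% of promoters. It also held TGACG at -78 and at -6, and the match at -6 overlaps the last E-box. The PPAR response element, a direct repeat of AGGTCA with 1 base between, searched on both strands without mismatch, was in none of the 14 windows and in 0.0396% of all promoters. These matches describe letters in a window and say nothing of binding.

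**Figure D1:**
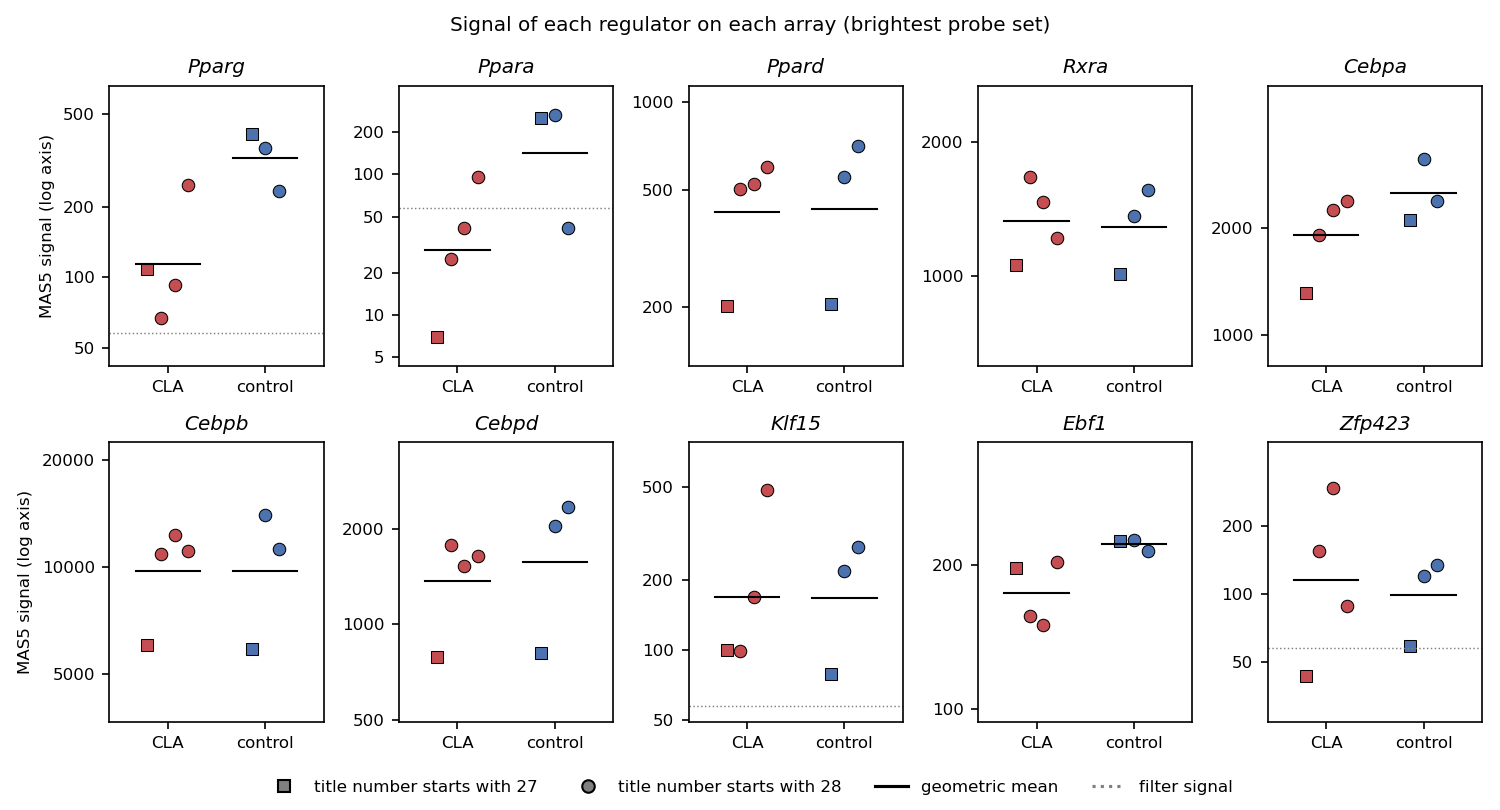
MAS5 signal (log axis) of the brightest probe set of each of the 10 genes on each array, CLA left and control right, with a bar at the geometric mean and a dotted line at the filter signal of 57.7. Pparg and Ebf1 sit lower in most CLA glands, while Ppard, Cebpb and Cebpd split by the leading digits of the array's title number (square 27, circle 28) and not by diet.

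Limma called 0 of the 9 regulators tested at an adjusted p under 0.05, as it called 0 of all 12497 genes tested (percent called 0). At an unadjusted limma p under 0.05 it called 1 of the 9, Pparg, against 5.39% of all genes. That gene was lower, as were 3.01% of all genes, and 0 of the 9 were higher, as were 2.38%. Every difference between diets below is therefore a value that did not pass the test over all genes.

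Pparg signal was 108, 67.0, 92.9 and 249 in CLA glands, against 414, 357 and 234 in control glands. Of the CLA arrays, 3 lay below all control arrays, and the groups overlapped because CLA replicate 4 lay just above control replicate 3. The means were 129 ± 81.4 (SD, n = 4) in CLA and 335 ± 91.9 (SD, n = 3) in control glands. The log2 change, CLA minus control, was -1.52 ± 0.42 (SE), or 2.86-fold lower, with a 95% interval from -2.46 to -0.57. Its limma adjusted p was 0.688, from an unadjusted 0.00523. Pparg has only this probe set. Without CLA replicate 4 the log2 change was -1.89 and the limma adjusted p 0.0868.

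White fat markers were lower on the same arrays. All 11 markers tested, of 14 on the list, were lower in CLA glands at an unadjusted limma p under 0.05, where 3.01% of all genes were. Their summed signal ranged from 33382 to 77780 in CLA glands and from 79488 to 103207 in control glands. Adiponectin, Adipoq, a hormone of fat cells, had 1807, 901, 1547 and 6936 in CLA glands and 8542, 7924 and 5486 in control glands. Signals were floored at 1, so no marker could read 0 on any array. Leptin, Lep, also on the marker list, had 14.2, 53.7 and 55.8 on CLA replicates 1, 2 and 3, under the filter signal of 57.7. It had 99.5 on CLA replicate 4 and 63.96, 189 and 230 in control glands. The CLA array highest for Pparg, replicate 4, was also highest for Adipoq, and the control array lowest for Pparg, replicate 3, was lowest for Adipoq. In whole tissue, fewer fat cells and less of a transcript per fat cell cannot be told apart.

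The Pparg difference was also taken relative to these markers, by subtracting from every gene the array's mean marker score. So measured, the log2 change of Pparg was -0.07 ± 0.56 (SE), with an interval from -1.17 to 1.03 and a limma adjusted p of 0.902. The score itself differs between diets and is subtracted from all genes, so 89.9% of genes tested, 11241 in number, were called higher in this measure and 0.224% lower. That number was 21 without control replicate 2, 114 without CLA replicate 1, 16 with the arrays of title number 28 alone and 13 with a muscle marker score in the fit. In the reported fit 7 of the 9 regulators tested were called higher, near that background, and each lost its call in at least 4 of the 7 fits that left out an array. Pparg and Ebf1 were not, and Ebf1 stood at 1.11 ± 0.56 (SE) with a limma adjusted p of 0.0517.

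Ppara, the PPAR of fat burning, was dim. Its brightest probe set had a mean signal of 56.6, just below the 57.7 needed for testing, so its values come from the same fit without that filter, over 18193 genes. Signal was 6.99, 24.9, 41.2 and 94.9 in CLA glands, against 251, 264 and 41.5 in control glands. The high values were those of control replicates 1 and 2, and control replicate 3 lay within the CLA range. The log2 change was -2.29 ± 0.91 (SE), with an interval from -4.31 to -0.26 and a limma adjusted p of 0.923. Relative to the white fat score it was -0.84 ± 0.71 (SE), with an interval from -2.23 to 0.55 and a limma adjusted p of 0.270. Both further Ppara probe sets were also lower in CLA glands on average, by log2 changes of -1.46 ± 0.72 and -1.85 ± 0.80 (SE).

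Markers of brown fat, a tissue rich in Ppara, had high values on the same control arrays. Of 7 brown fat markers tested, all had a negative change and 6 were lower at an unadjusted limma p under 0.05, against 3.01% of all genes. That count was 2 with the arrays of title number 28 alone, and 3 without control replicate 1 or with the muscle score in the fit. Their summed signal ranged from 929 to 4973 in CLA glands and from 3506 to 16741 in control glands. Ucp1, the uncoupling protein that defines brown fat, was 3.19, 18.2, 39.6 and 916 in CLA glands, against 3383, 3964 and 144 in control glands. As with Ppara, control replicate 3 lay far below the other control arrays and CLA replicate 4 far above the other CLA arrays. The part of brown fat in the Ppara difference was not tested.

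Ppard, the broadly expressed PPAR, had 202, 506, 523 and 598 in CLA glands, against 204, 555 and 708 in control glands. The groups lay over each other, and in each the low array was that whose title number starts with 27. The log2 change was -0.03 ± 0.48 (SE), with an interval from -1.10 to 1.04. A second Ppard probe set was too dim to read, at signals of 4.27 to 6.15 in CLA and 2.96 to 6.66 in control glands. A further probe set listed for Ppard and another gene was not used.

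Rxra, an RXR partner that PPARs can use on DNA, had 1061, 1665, 1469 and 1216 in CLA glands and 1010, 1364 and 1562 in control glands. The groups overlapped over most of their range. Its log2 change was 0.05 ± 0.21 (SE), with an interval from -0.42 to 0.51, so a difference of the size seen for Pparg lies outside it. The further Rxra probe sets gave 0.05 ± 0.33 and, from a dim one, 0.43 ± 1.14 (SE).

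Cebpa, the partner of Pparg in mature fat cells, had 1314, 1905, 2243 and 2372 in CLA glands, against 2093, 3113 and 2375 in control glands. The highest CLA array lay just below control replicate 3, and control replicate 1 lay inside the CLA range. The means were 1958 ± 473 (SD, n = 4) and 2527 ± 527 (SD, n = 3) in CLA and control glands. The log2 change was -0.38 ± 0.22 (SE), with an interval from -0.89 to 0.12 and a limma adjusted p of 0.931. With the title number as a term it was -0.43 ± 0.15, with an interval from -0.78 to -0.08 and a limma adjusted p of 0.602. That fit called 2 of the 9 regulators at an unadjusted p, Pparg and Cebpa, against 7.48% of all genes.

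Cebpb, which starts the cascade and also drives growth of the mammary epithelium, had 6034, 10935, 12367 and 11135 in CLA glands, against 5870, 14070 and 11270 in control glands. The diets lay over each other, with 1 low array in each. Its log2 change was 0.00 in size, with an SE of 0.32 and an interval from -0.72 to 0.72. A second Cebpb probe set had the same low arrays, with 2140, 5552, 3333 and 5458 in CLA glands and 2062, 5011 and 6037 in control glands.

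Cebpd, the other early factor and a gene of the acute phase, had 787, 1778, 1533 and 1648 in CLA glands, against 810, 2047 and 2359 in control glands. Again CLA replicate 1 and control replicate 1 were the low arrays. Its log2 change was -0.20 ± 0.39 (SE), with an interval from -1.08 to 0.68. A dim second probe set of Cebpd gave -1.15 ± 0.56 (SE), from signals of 11.9 to 53.7 in CLA and 52.0 to 76.1 in control glands.

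Klf15, a factor that acts late in fat cell formation and in the breakdown of amino acids, had 99.9, 98.7, 168 and 484 in CLA glands, against 78.6, 217 and 275 in control glands. CLA replicate 4 stood above every other array. The log2 change was 0.01 ± 0.60 (SE), with an interval from -1.35 to 1.36, so these arrays leave room for a difference of more than 2-fold in either direction. Within the arrays of title number 27 it was 0.35 and within those of 28 it was -0.29.

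Ebf1, which acts upstream of Pparg and Cebpa and is also a B cell factor, was the only regulator tested whose groups did not overlap, 1 of 9, against 5.31% of all genes in either direction. Its signal was 197, 156, 150 and 203 in CLA glands, against 225, 226 and 214 in control glands. Of all genes tested, 2.67% were lower in every CLA array than in every control array. The log2 change was -0.34 ± 0.21 (SE), with an interval from -0.81 to 0.13 and a limma adjusted p of 0.931. Of the other 4 Ebf1 probe sets, 3 gave -0.29, -0.70 and -0.23, the dimmest gave 0.28, and all 4 overlapped between diets. B cell markers were at or near background, with 1 of 8 past the filter and a summed signal of 241 to 379.5 in CLA and 224 to 290 in control glands.

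Zfp423, a zinc finger protein that commits precursors to the fat cell fate, had 43.3, 155, 293 and 88.3 in CLA glands, against 58.9, 120 and 134 in control glands. The CLA arrays spanned the whole control range and beyond at both ends. The log2 change was 0.22 ± 0.60 (SE), with an interval from -1.11 to 1.56. Markers of fat cell precursors, the cells in which Zfp423 acts, had a median log2 change of 0.13, all 6 tested being positive, where 55.3% of all genes were. The median was -0.088 without control replicate 1, -0.018 without CLA replicate 3 and -0.058 with the arrays of title number 28 alone, with 2 of the 6 positive in each, so these arrays set no direction for the list.

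**Figure D2:**
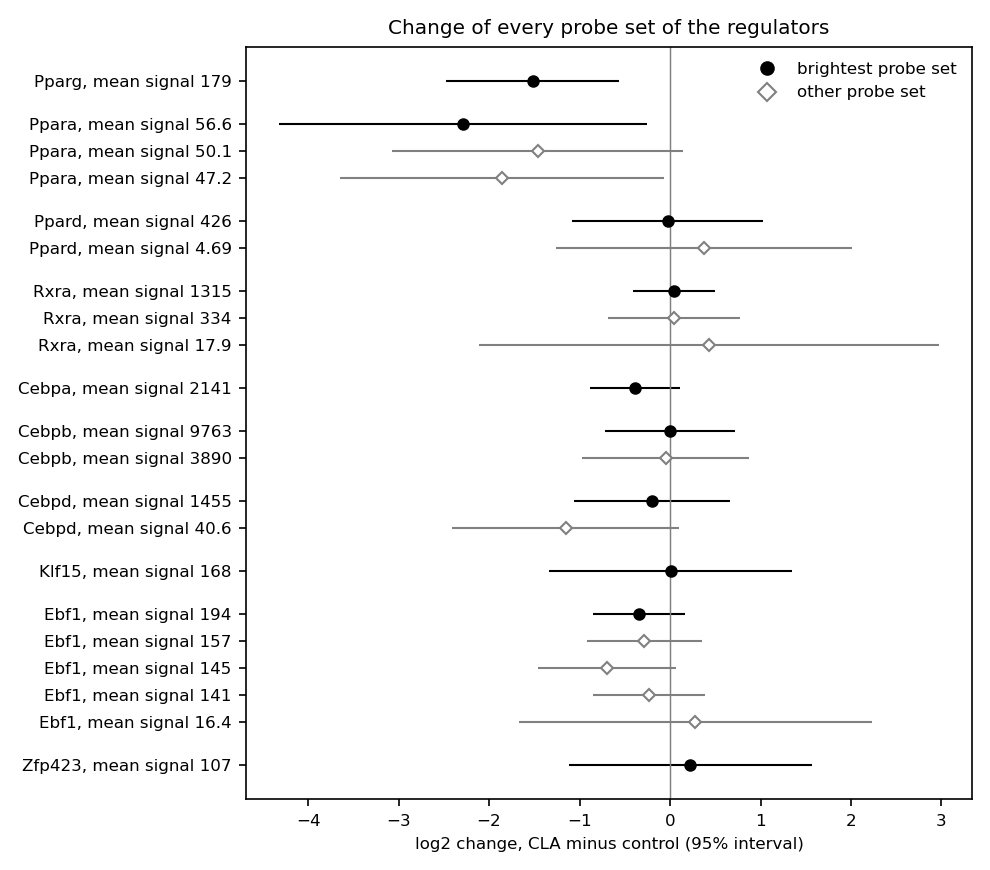
Log2 change, CLA minus control, of all 21 probe sets with 95% intervals from a limma fit over 34945 probe sets, filled for the brightest of a gene and open for the others. The Pparg and Ppara probe sets lie to the left of 0, the dim probe sets have the widest intervals, and 14 of the 21 values are negative.

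Over all 21 probe sets, 14 had a negative and 7 a positive log2 change. Among all genes tested, 44.7% were negative and the median log2 change was 0.03, so the share of negative values among the regulators rests on few genes and is no result about them.

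The arrays whose title numbers start with 28 (CLA replicates 2, 3 and 4, control replicates 2 and 3) differed from those starting with 27 (CLA replicate 1, control replicate 1) for several regulators. The log2 differences were larger in size than those between the diets for every regulator tested but Pparg and Ebf1. The sources used here do not say what the title numbers stand for, and the comparison was added after the data were seen. In a fit with diet and title number together, limma called 3 of the 9 regulators higher on the arrays of 28 at an adjusted p under 0.05, against 0.448% of all genes higher and 0 lower. Ppard was higher by 1.52 ± 0.18 (SE) on the log2 scale, 2.86-fold, with an interval from 1.11 to 1.92 and a limma adjusted p of 0.0221. Cebpd was higher by 1.24 ± 0.15 (2.37-fold, limma adjusted p = 0.0221) and Cebpb by 1.01 ± 0.13 (2.01-fold, limma adjusted p = 0.0265). At an unadjusted limma p, 7 of the 9 were higher, against 9.94% of all genes. For Ppard, Cebpb and Cebpd all 5 arrays of 28 lay above both arrays of 27, which was also true of Rxra and Zfp423 and of 12.7% of all genes. For Cebpa and Klf15 the arrays of 28 and 27 overlapped.

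Those 3 calls rest on 2 arrays of title number 27 and on the spread borrowed between genes. They were lost with eBayes without a trend, where 0 genes passed (adjusted p of 0.0607 for Ppard, 0.0882 for Cebpb and 0.0665 for Cebpd), and without control replicate 1, 2 or 3 or CLA replicate 1 or 2. The sizes moved little, with Ppard between 1.42 and 1.62, Cebpb between 0.93 and 1.10 and Cebpd between 1.07 and 1.44 when each array was left out in turn. Without CLA replicate 3, Cebpd alone of the 3 was called. Zfp423 was higher by 1.51 ± 0.46, Klf15 by 1.30 ± 0.55, Cebpa by 0.56 ± 0.16 and Rxra by 0.48 ± 0.16 (SE), none of them past the adjusted threshold. Pparg and Ebf1 had differences of -0.19 and -0.14, the only negative ones among the 9.

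**Figure D3:**
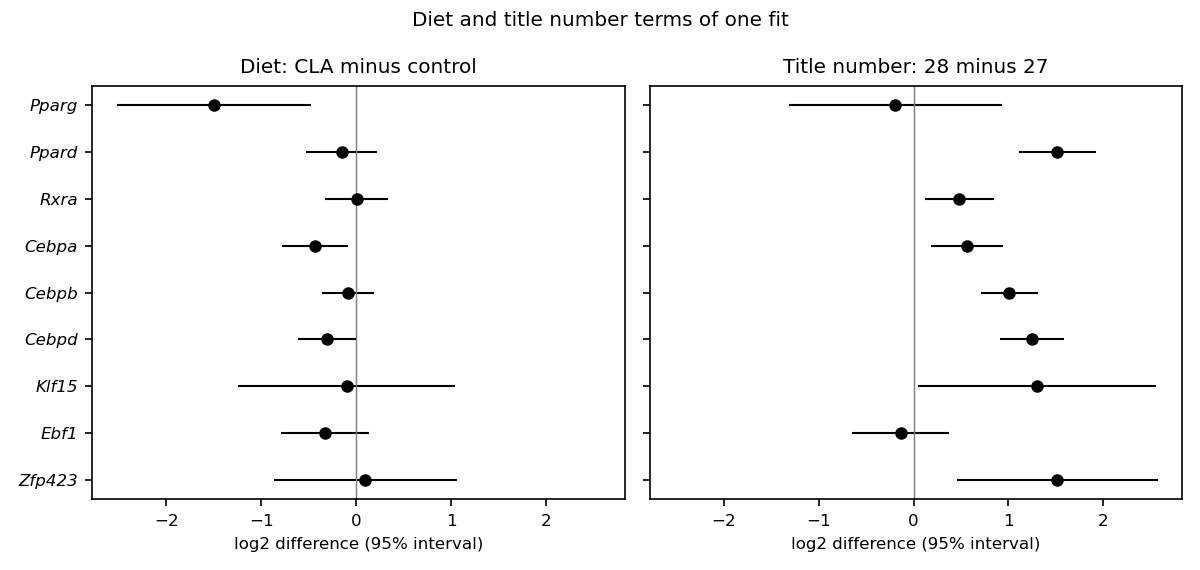
Log2 differences with 95% intervals for the 9 regulators tested, from a limma fit with both terms: CLA minus control on the left, title number 28 minus 27 on the right. Pparg has the largest diet term (-1.50). In the title number panel alone, the intervals of all regulators but Pparg and Ebf1 lie to the right of 0.

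With title number in the fit, the diet change of Pparg was -1.50 ± 0.44 (SE), with an interval from -2.52 to -0.48 and a limma adjusted p of 0.564. It was -1.93 within the arrays of 27, from 1 array per diet, and -1.32 within those of 28. For Cebpd the diet change was -0.30 with this term and an unadjusted limma p of 0.0528, and for Cebpb -0.08. Glucocorticoid-induced genes, a list that responds to the hormone that also induces Cebpd and Klf15, had a median title number difference of 0.47 over 8 genes, and none was called. Lists described below went both ways. The median was 0.46 for KLF15 targets, 0.32 for other adipogenic factors, -0.31 for brown fat markers and -1.13 for muscle markers. A positive median was thus not particular to the glucocorticoid-induced genes. The clock gene Per1, on the glucocorticoid list, was higher by 1.30 on the arrays of 28, with a limma adjusted p of 0.114.

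Genes that the regulators are known to switch on were followed as lists. Of 16 PPAR gamma targets of fat cells, 11 were tested, all had a negative change and all 11 were lower in CLA glands at an unadjusted limma p under 0.05, against 3.01% of all genes. Their median log2 change was -1.30, against 0.03 over all genes, and none passed the adjusted test (limma adjusted p from 0.295 to 0.855). Without CLA replicate 4, 6 of these targets and 4 of the 11 white fat markers were lower at a limma adjusted p under 0.05. In that fit 17 of all 12497 genes were. Leaving out any other array called no gene of either list at that threshold. For 6 of the targets every CLA array lay below every control array, as for 2.67% of all genes. The fatty acid transporter Cd36 had 1049, 957, 685 and 1532 in CLA glands, against 3602, 2774 and 2362 in control glands, a log2 change of -1.50 ± 0.26 (SE). The fatty acid binding protein Fabp4 had 10137, 8171, 11123 and 19323, against 29223, 31236 and 25087 in control glands, a change of -1.30 ± 0.25. The lipase Lpl, which frees fatty acids from blood lipoproteins, had 5234, 3914, 3943 and 6633, against 9575, 9763 and 9485 in control glands. The lipid droplet protein Cidec had a change of -2.14 ± 0.45. On all 4 of these genes every CLA array lay below every control array. Of these target genes, Fabp4, Cidec, Adipoq and Gpd1 are also on the white fat marker list, so the lists are not separate measures.

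PPAR alpha and delta targets, mostly enzymes that burn fatty acids, had smaller changes. Of 21, 16 were tested, all 16 had a negative change, 13 were lower at an unadjusted limma p under 0.05, against 3.01% of all genes, and 9 were lower in every CLA array than in every control array, against 2.67%. The median log2 change was -0.63. The uncoupling protein Ucp3 had 124, 162, 67.2 and 141 in CLA glands, against 292, 593 and 566 in control glands, a change of -1.97 ± 0.36 (SE). Pdk4, a kinase that turns cells from sugar to fat as fuel, had 76.2, 133, 130 and 390 in CLA glands, against 1943, 1941 and 440 in control glands. Its change was -2.98 ± 0.62, and like Ppara its highest values were on control replicates 1 and 2. The fatty acid dehydrogenases Acadl and Acadm had changes of -0.74 ± 0.14 and -0.65 ± 0.16.

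Skeletal muscle, which burns fat with the same enzymes, was present unevenly. All 15 muscle markers were lower in CLA glands at an unadjusted limma p under 0.05, against 3.01% of all genes, with a median log2 change of -4.11. The count was 9 without control replicate 2 and with robust eBayes, and the median ran from -5.93 with the arrays of 28 alone to -2.97 without control replicate 2. Their summed signal ranged from 747 to 18887 in CLA glands and from 12820 to 119266 in control glands. With the muscle score in the fit, the log2 change of Pparg was -1.66 and that of Ppara -3.49. The PPAR alpha and delta targets then had a median of -0.72, with 16 of 16 negative. Of these, 10 were lower at an unadjusted limma p under 0.05, where 198 of 12497 genes were. The muscle markers make up the score, so their median of -0.010 and lack of calls follow from the fit itself.

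**Figure D4:**
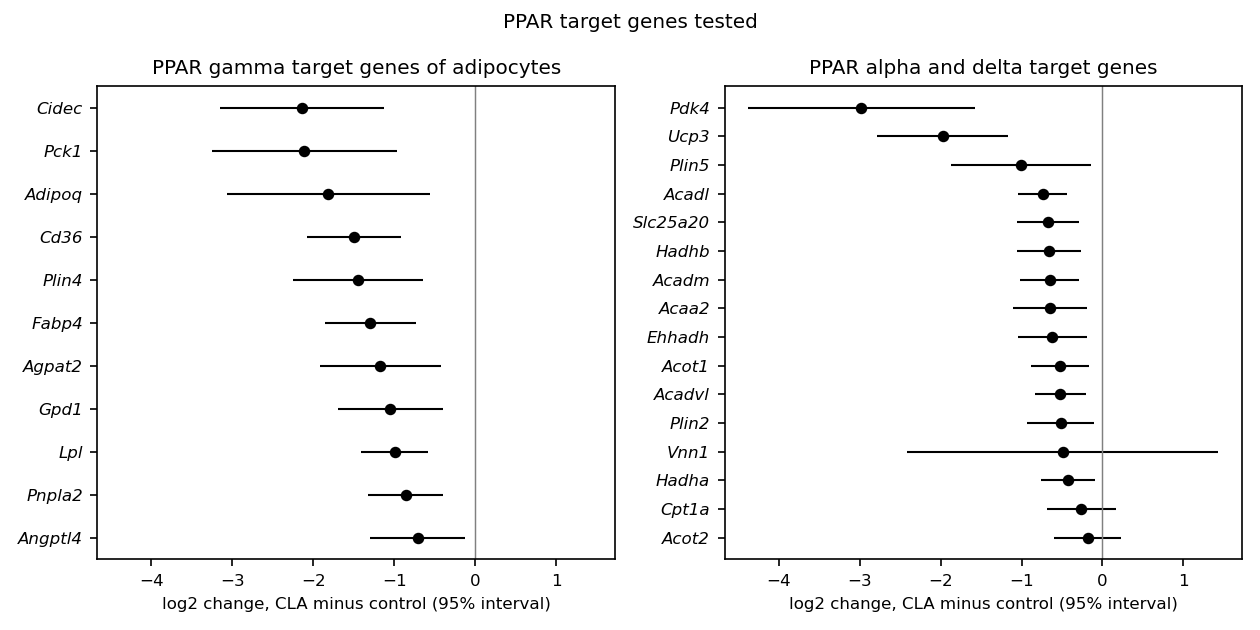
Log2 change, CLA minus control, with 95% intervals for the tested targets of PPAR gamma (11 genes, left) and of PPAR alpha and delta (16 genes, right). All points lie to the left of 0, and the left panel is shifted further, with medians of -1.30 and -0.63.

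The C/EBP target lists were small. All 4 C/EBP alpha targets had a negative change, where 44.7% of all genes did, with a median of -0.74. At an unadjusted limma p under 0.05, 3 were lower, against 3.01% of all genes. These were the desaturase Scd1 (-0.50 ± 0.14), the insulin-responsive glucose transporter Slc2a4 (-0.99 ± 0.30) and leptin, Lep (-1.63 ± 0.67). Insr, the insulin receptor, stood at -0.19 ± 0.20. With the muscle score in the fit 1 of the 4 was positive and only 1 was lower at that threshold. Leptin is also a white fat marker, and its signal was 14.2, 53.7, 55.8 and 99.5 in CLA glands and 63.96, 189 and 230 in control glands. It carried both patterns, being lowest on the array of title number 27 within each diet (title number difference 1.99, limma adjusted p = 0.0835).

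Of the acute phase genes that C/EBP beta and delta switch on, 4 of 6 were tested and all 4 had a negative change. At an unadjusted limma p under 0.05, 2 were lower, against 3.01% of all genes. With the muscle score in the fit 1 of the 4 was positive and 2 were lower. Orm1, a plasma protein of the acute phase that fat cells also make, had 104, 112, 121 and 376 in CLA glands, against 727, 742 and 589 in control glands, a change of -2.17 ± 0.42 (SE). Haptoglobin, Hp, had a change of -1.39 ± 0.36. Saa3 (-0.50 ± 0.32) and Lcn2 (-0.07 ± 0.15) did not pass even the unadjusted threshold. Cebpb and Cebpd themselves had changes of 0.00 in size and -0.20. Cebpg, the only other C/EBP gene tested of 3, stood at -0.12 ± 0.14.

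The KLF15 list gave 4 of 5 genes tested, with 2 positive and 2 negative changes and a median of 0.06, which ranged from -0.24 to 0.36 when each array was left out in turn. Prodh, which starts the breakdown of proline, had 290, 349, 272 and 339 in CLA glands, against 204, 181 and 233 in control glands. Every CLA array lay above every control array, as for 2.64% of all genes, with a log2 change of 0.60 ± 0.19 (SE) and a limma adjusted p of 0.738. Bcat2, which breaks down branched-chain amino acids, had a diet change of -0.08 ± 0.40 and, like Klf15, a higher signal on the arrays of 28 (1.17 ± 0.23, limma adjusted p = 0.0885). Gpt, an alanine aminotransferase, stood at -0.19 ± 0.21. Alpl, a phosphatase and not an enzyme of amino acid breakdown, stood at 0.20 ± 0.37.

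Other genes around the regulators were followed in the same way. Of 17 nuclear receptor partners and coregulators, 13 were tested, and the median log2 change was -0.10. At an unadjusted limma p under 0.05, 0 were lower or higher, against 5.39% of all genes. The coactivator Ppargc1b had the smallest p, with 318, 445, 221 and 596 in CLA glands against 672, 601 and 477 in control glands. Its change was -0.64 ± 0.32 (SE), with an interval from -1.35 to 0.06, so a difference of more than 2-fold lies within it. Med1, the subunit by which the Mediator complex binds PPARs, stood at 0.27 ± 0.19, Ncoa3 at -0.30 ± 0.20 and the liver X receptor Nr1h3 at -0.36 ± 0.27.

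Of 14 other adipogenic factors, 13 were tested, with a median of -0.09. At an unadjusted limma p under 0.05 there were 0, against 5.39% of all genes. Of the 13, 2 were lower in every CLA array than in every control array, against 2.67% of all genes. These were Ebf3, a relative of Ebf1 (-0.58 ± 0.26), and Stat5a, which carries prolactin and growth hormone signals (-0.28 ± 0.13). Klf4, an early factor of the cascade that acts on Cebpb, had 465, 385, 519 and 674 in CLA glands and 530, 884 and 825 in control glands (-0.54 ± 0.24). Egr2, which acts beside it, stood at 0.63 ± 0.37.

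Of 14 inhibitors of fat cell formation, 13 were tested, with a median of -0.02. Only Klf7, 1 of 13, was lower at an unadjusted limma p under 0.05, against 3.01% of all genes, and 0 were higher, against 2.38%. Klf7 had 840, 1067, 1044 and 792 in CLA glands against 1100, 1173 and 1344 in control glands (-0.37 ± 0.16). Zfp521, which holds back Ebf1 and Zfp423, stood at 0.46 ± 0.34, Gata2 at -0.33 ± 0.23 and Sox9 at 0.18 ± 0.15. Among glucocorticoid-induced genes 1 of 8, Zbtb16, was lower at an unadjusted limma p under 0.05 (-0.72 ± 0.26), against 3.01% of all genes. The median was -0.12, with Tsc22d3 at -0.57 ± 0.37, Mt2 at -0.27 ± 0.26 and Fkbp5 at 0.15 ± 0.20.

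**Figure D5:**
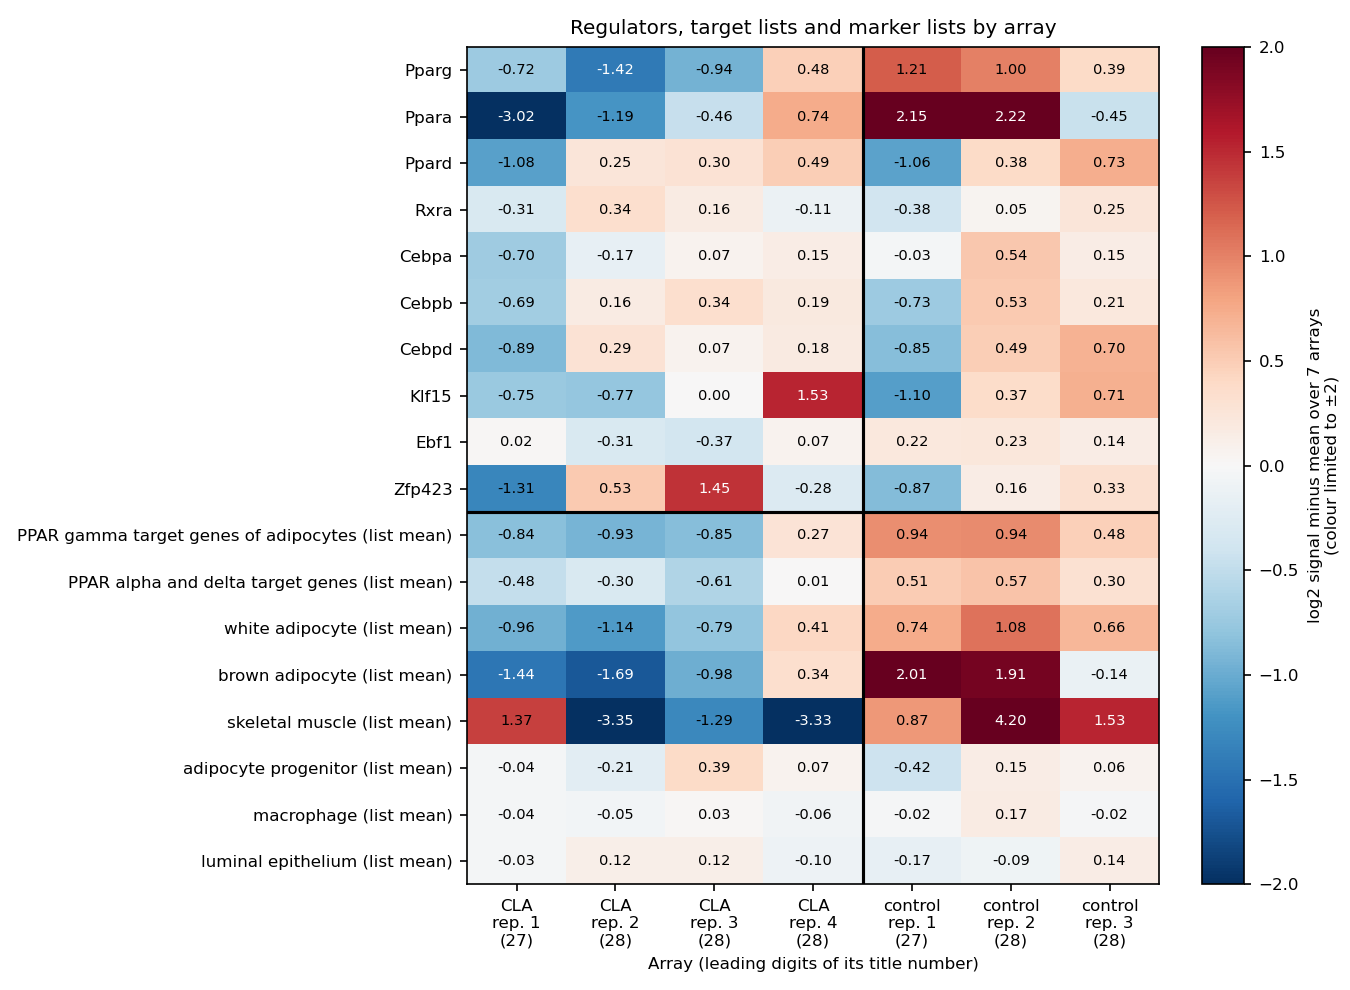
Log2 signal on each array minus the mean over the 7 arrays for the 10 regulators (above the line) and the mean of list members for target and marker lists (below it), CLA arrays left, control arrays right, colour limited to 2 in size. Pparg runs close to the PPAR gamma targets and white fat markers, Ppara to the brown fat markers, and Ppard, Cebpb and Cebpd are low on the arrays marked 27.

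Across the 7 arrays the regulators did not all share a profile. Ppard, Cebpb and Cebpd were alike in being low on the arrays of title number 27. Likeness to Pparg, Cebpa and Klf15 was measured as the root mean square difference between centred log2 signals, over 12497 genes. Ppard, Cebpb and Cebpd were not compared with each other in this way. The genes most like Pparg were Maob (0.224), Slc4a4 (0.238), Adhfe1 (0.275), Fabp4 (0.281) and Plin4 (0.291), where Pparg itself varied by 0.946 around its mean. The median of all genes from Pparg was 1.00. Among the regulators Ebf1 came nearest, at rank 426, then Cebpa, at rank 719. The genes most like Cebpa were Arhgef15 (0.0997), Acp5 (0.116), Mideas (0.119), Gatd3a (0.120) and Mafk (0.130). Cebpa itself varied by 0.352 around its mean, and the median of all genes from Cebpa was 0.435. The measure depends on how much each gene varies, so it cannot tell whether Cebpa and Pparg act together. On every CLA array but replicate 4 Cebpa lay above the white fat marker score, by 0.26 to 0.97 log2 units. On CLA replicate 4 and all control arrays Cebpa lay below that score, with differences of -0.26 to -0.77. The score itself is lower in CLA glands. Relative to it, 7809 of 12497 genes were, like Cebpa, higher on every CLA array than on every control array.

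Klf15 was most like Cyp2s1 (0.284), Pdcd4 (0.347), Inha (0.366), Gstm2 (0.387) and 2210409D07Rik (0.390), all high on CLA replicate 4. Of these, Pdcd4 had 2628, 2625, 2548 and 7570 in CLA glands and 2168, 4180 and 4929 in control glands. The nearest regulator was Ppard, at rank 96. Klf15 itself varied by 0.872 around its mean, and the median of all genes from Klf15 was 0.912. These likenesses describe 7 arrays and are given without a test.

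Markers of the other cells of the gland had these values. Luminal epithelium had a median log2 change of 0.06, macrophages 0.07, endothelium -0.13 and fibroblasts 0.28, while basal epithelium had 0.63, with 3 of 8 markers higher at an unadjusted limma p under 0.05, against 2.38% of all genes. The basal median was 0.10 without control replicate 2, and 0.014, with 0 of 8 higher, with the muscle score in the fit. The luminal markers summed to between 96900 and 106130 in CLA glands and between 90693 and 113225 in control glands, so mammary epithelium was present on every array.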

How the data were processed

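Biotin-labelled total RNA of 7 mammary glands was hybridised to Affymetrix arrays of 45101 probe sets. The authors deposited linear MAS5 signal intensities, per the submitters' processing notes, which give no version. Each array's deposited intensity values had a mean of 500.003 with 2% trimmed at each end, so they were already scaled. Groups followed the diet in the labels. Signals were floored at 1 and taken to log2. Probe sets with 1 gene symbol (34945) gave 18193 genes, each by its probe set of highest mean log2 signal. Of these, the 12497 whose mean reached the 40th percentile over probe sets (a signal of 57.7) were tested. Limma 3.58.1 in R 4.3.3 (lmFit, eBayes with trend, 4.53 prior degrees of freedom, no covariate) compared diets, two-sided, with Benjamini-Hochberg adjustment over all genes tested and a threshold of 0.05. The fit was tested on simulated data. A list score averages the listed genes' log2 signals after each is centred on its own mean across arrays. List genes named are the 4 of smallest p, and for Pparg, Cebpa and Klf15 the 5 genes most alike. Genes chosen after their values were seen were Per1, Adipoq and Ucp1. The members and lists were chosen with earlier results of these data known. The title number term was added after seeing the data. Gene symbols and promoters came from RefSeq tables of GRCm38.p6. Precision is limited by the number of arrays.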

Additional observations from a re-analysis of the deposited data

Results flagged for a closer look

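The signal of Ppard on CLA replicate 1, 202, lay far below the other 3 CLA arrays, which held 506 to 598, a gap of 0.847 of the group's whole log2 range. Chance gives such a gap in about 1 in 20 groups, and 10 genes were examined. Control replicate 1, the other array with a title number starting with 27, had a Ppard signal of 204.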

How the results depend on the processing

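The log2 changes of Pparg, Ppara and Cebpa kept their negative sign under every alternative run, and no regulator's diet change passed limma's adjusted threshold under any. Pparg lay between -1.66 and -1.10 across settings and between -1.89 and -1.26 when each array was left out in turn. Changes near 0 turned sign. Ppard was 0.053 with median centring, 0.17 with the mean of probe sets and 0.38 by its dim probe set. Cebpb was 0.054 with quantile normalization and 0.081 with median centring. With title numbers starting with 28 alone Rxra was -0.022 and Klf15 -0.29, with the muscle covariate Rxra was -0.10, Klf15 -0.32 and Zfp423 -0.25, and with the title number block Klf15 was -0.10. A dim Ebf1 probe set gave 0.28. Leaving out each array in turn, Ppard ranged from -0.57 to 0.33, Rxra from -0.13 to 0.18, Cebpb from -0.37 to 0.26, Cebpd from -0.68 to 0.091, Klf15 from -0.54 to 0.37 and Zfp423 from -0.23 to 0.69. Causes were not tested.

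Relative to the white fat score, Pparg was 0.0059 with a pseudocount of 16, 0.17 with 64, 0.055 with 28 alone and 0.0076 with muscle. Ppara was 0.15 with a pseudocount of 64 and 0.19 with 28 alone, against -0.84 as reported and -1.63 to -0.27 with each array left out. With 28 alone and with the muscle covariate, calls were lost for Ppard (1.16 and 1.15), Rxra (1.35 and 1.56), Cebpa (1.05 and 1.09), Cebpb (1.24 and 1.54), Cebpd (0.96 and 1.14), Klf15 (1.09 and 1.35) and Zfp423 (1.70 and 1.41). Cebpa also lost its call with a pseudocount of 64 (0.90), no filter, no trend (both 1.06), the stricter filter (1.05) and the title number block (1.04), as did Cebpd with the mean of probe sets (0.80). Ebf1 was called with quantile normalization (1.15), pseudocounts of 16 and 64 (1.07 and 1.02), the mean of probe sets (1.22), and robust or untrended eBayes (both 1.11). Leave-one-out ranges were -0.22 to 0.15 for Pparg, 0.92 to 1.86 for Ppard, 1.21 to 1.88 for Rxra, 0.89 to 1.30 for Cebpa, 1.12 to 1.73 for Cebpb, 0.81 to 1.62 for Cebpd, 0.95 to 1.90 for Klf15, 0.93 to 1.38 for Ebf1 and 1.16 to 2.14 for Zfp423. Of these 7 fits, calls were lost in 6 for Cebpa, 5 for Ppard, Rxra, Cebpd and Zfp423 and 4 for Cebpb and Klf15, and Ebf1 was called in 1.

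Limma called 0 genes at an adjusted p in the reported fit and 674 at an unadjusted p under 0.05. At an adjusted p it called 1 with 28 alone and 0 to 17 with each array left out, 2 without control replicate 1 and 17 without CLA replicate 4. At an unadjusted p there were 1227 with 28 alone, 315 with the muscle covariate, 380 without control replicate 2, 430 without CLA replicate 2 and 1380 without control replicate 1. The split of higher to lower calls was 622 to 268 with median centring, against 298 to 376 as reported, and the median of all genes was then 0.11. The median of the other adipogenic factors was 0.0077 with the mean of probe sets and -0.16 to 0.0069 with each array left out, that of the coregulators -0.16 to 0.0039, and that of other C/EBP genes 0.030 with the muscle covariate. The count of lower PPAR gamma targets was 8 to 11 and that of PPAR alpha and delta targets 10 to 14 across all alternatives.

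The title number differences of Pparg (0.094 without control replicate 1, with -0.52 as the lowest) and Ebf1 (0.21 with the mean of probe sets) turned sign. That mean, which takes in dim probe sets, gave 0.47 for Ppard and 0.56 for Cebpd, and neither was called. The stricter filter leaves out Pparg, Klf15, Ebf1 and Zfp423. No paired analysis was possible because the labels give the arrays no shared replicate numbers. The 3 Ppara probe sets were under the filter signal on 4, 4 and 3 of 7 arrays, the dim one of Cebpd on 5, the dimmest of Ebf1, Ppard and Rxra on all 7, and Zfp423 on CLA replicate 1 alone.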
